A study of Saccharomyces cerevisiae with 4 samples.

Results

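The transcripts described here come from 10 genes of budding yeast (Saccharomyces cerevisiae) that handle acetate, move acetyl units with carnitine, or turn pyruvate into oxaloacetate. All rows of the authors' site list whose gene was ACS1, ACS2, ALD4, ALD6, CAT2, JEN1, MDH2, PYC1, PYC2 or ADR1 were taken. They were 26 of 1892 listed sites, and these 10 genes were among 1253 with a listed site of their own. The genes were chosen because they have listed sites, so that the presence of a site in them is not a finding.

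The study mapped 5-formylcytidine, an oxidised form of 5-methylcytidine, in poly(A)+ RNA by f5C-seq. Pyridine borane converts this base to dihydrouridine, and reverse transcription then copies it as if it were U, so that a modified position appears as a mutated base in treated RNA only. All 4 libraries were of yeast from a single picked colony, grown overnight at 28 °C in YPD medium with 2% glucose, and no strain or allele is given in the labels. The 2 treated libraries were of fragmented mRNA kept with 0.9 M pyridine borane at 37 °C and pH 5.2 for 24 h, and the 2 input libraries were of mRNA without the reagent. Replicates are numbered 1 and 2 in both groups, and nothing says that they were separate cultures, so the spread between them may be technical.

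Yeast on glucose decarboxylates much of its pyruvate to acetaldehyde. Aldehyde dehydrogenases oxidise acetaldehyde to acetate, and acetyl-CoA synthetases join acetate to coenzyme A. Acetyl units can cross into mitochondria on carnitine, and pyruvate carboxylase refills the pool of oxaloacetate from which the citric acid cycle and glucose synthesis draw. Several of these genes are held down while glucose is plentiful and are switched on when cells turn to ethanol, acetate or lactate.

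The treated level of a site is the share of its covering reads that were mutated in treated RNA, as the mean of the 2 replicates. CAT2, the carnitine acetyltransferase, carried both extremes of the 26 sites. Its last site stood at 11.8% ± 0.202 (SD, n = 2), and the site 247 nt before it at 7.52% ± 0.0233, which was also the lowest level of all 1892 listed sites. The median level was 8.76% over the 26 sites and 9.00% over all listed sites. Levels of 10% or more were found at 5 of the 26 sites (19.2%) and at 27.5% of all sites. Of these 5, 4 lay in CAT2 and 1 in ACS1.

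The input libraries were nearly free of mutated reads at these positions. Summed over the 26 sites, 19 of 43238 input reads were mutated (0.0439%), against 0.0460% over all listed sites. At 15 of the 26 sites no input read was mutated in either library. Taking 3 reads as the upper limit for a count of 0 gives an approximate limit on the input share. This limit was 0.196% at the deepest and 0.448% at the shallowest of these 15 sites, and it covers counting error only. The highest input fraction at any of the 26 sites was 0.258%. By Fisher exact test on summed reads 26 of 26 sites were higher in treated RNA, as were 100% of the listed sites. The authors selected the list on this contrast, so nothing is read from that count.

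**Figure D1:**
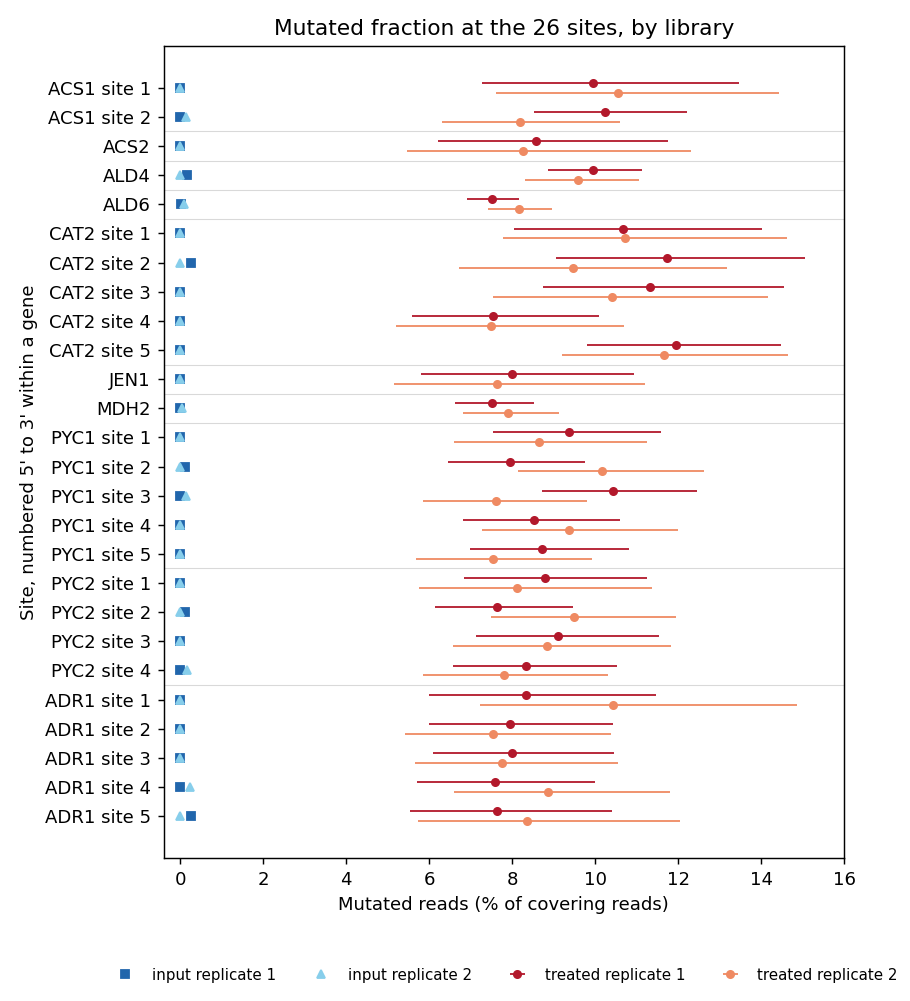
Share of mutated reads (x axis, % of covering reads) at each of the 26 sites (y axis) in the 2 treated and 2 input libraries, with Wilson 95% intervals of counting error for the treated values. Treated values lie between 7.50% and 11.9%, and input values do not exceed 0.258%.

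Coverage at the 26 sites ranged from 249 to 6948 reads per library. The median over these sites was 647.5 and 463 reads in the treated and 537.5 and 464.5 in the input replicates. Over all listed sites it was 469 and 327.5 in treated, and 417.5 and 338 in input. All intervals given below are Wilson 95% intervals of the summed reads and cover counting error only.

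The 2 aldehyde dehydrogenase transcripts each had 1 site. ALD4 encodes the main mitochondrial enzyme and ALD6 the main cytosolic one. At the ALD4 site (YOR374W, chromosome XV, position 1039972, plus strand) the mutated share was 9.94% of 2646 reads in treated replicate 1 and 9.60% of 1792 in treated replicate 2. In input replicate 1 the fraction was 0.169% (4 of 2373 reads), and in input replicate 2 it was 0 of 1940. At the ALD6 site (YPL061W, chromosome XVI, position 433338, plus strand) 7.51% of 6948 and 8.16% of 4768 treated reads were mutated, against 0.0171% (1 of 5855) and 0.103% (5 of 4871) in input. Both treated values of ALD4 were above both of ALD6, and the intervals, 8.96% to 10.7% for ALD4 and 7.30% to 8.27% for ALD6, did not overlap. The replicate 1 value of ALD6 was close to 7.50%, the lowest treated fraction in the list. The authors chose the sites on these treated libraries, so this contrast is a description without a test. ALD6 was the most deeply covered of the 26 sites. Of 175 sites whose summed treated coverage lay within 1.5 times that of ALD4, 89.1% had a lower level than ALD4, and of 62 such sites for ALD6, 9.68% had a lower level than ALD6.

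ACS1 and ACS2 encode the acetyl-CoA synthetases, of which ACS2 is the form used on glucose and ACS1 is repressed by it. ACS1 had 2 sites, 1648 nt apart. At its 5′ site (YAL054C, chromosome I, position 44927, minus strand) 9.94% of 362 and 10.5% of 313 treated reads were mutated, and 0 of 381 and 0 of 306 input reads. At its 3′ site (position 43279) the treated fractions were 10.2% of 1046 and 8.20% of 634 reads, with 0 of 814 in input replicate 1 and 0.145% (1 of 688) in input replicate 2. The 3′ site was slightly higher in replicate 1 and lower in replicate 2, so the order of the ACS1 sites was not the same in the replicates. Summed treated coverage at the 3′ site was 2.49 times that at the 5′ site. The single ACS2 site (YLR153C, chromosome XII, position 447485, minus strand) had 8.59% of 396 and 8.27% of 254 treated reads mutated, and 0 of 455 and 0 of 309 input reads. Its interval of 6.56% to 10.9% overlapped those of both ACS1 sites, 8.16% to 12.7% and 8.16% to 11.0%, although both replicate means over the ACS1 sites, 10.1% and 9.37%, were higher.

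Coverage itself differed between treated and input libraries at some of these sites. Over all listed sites the quartiles of the ratio of treated to input coverage were 1.07 and 1.22 in replicate 1 and 0.907 and 1.04 in replicate 2. At the ACS2 site the ratio was 0.870 and 0.822, the lowest of the 26 sites in both replicates. The highest in replicate 1 was 1.40, at the last CAT2 site, where replicate 2 had 1.16. Its part in the level of either site was not tested.

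CAT2 encodes the carnitine acetyltransferase of mitochondria and peroxisomes, which passes acetyl groups between coenzyme A and carnitine. Its 5 sites (YML042W, chromosome XIII, plus strand) spanned 867 nt. At the first site (position 193529) 10.7% of 412 and 10.7% of 317 treated reads were mutated, and 0 of 403 and 0 of 305 input reads. The second site (position 193733) lay 204 nt downstream, with 11.7% of 443 and 9.46% of 317 treated reads mutated, and 0.258% (1 of 388) and 0 of 298 input reads. Only 2 nt further, at position 193735, the fractions were 11.3% of 459 and 10.4% of 327 treated reads, and 0 of 405 and 0 of 311 input reads. The mean levels of these 3 sites were 10.7%, 10.6% and 10.9%, with overlapping intervals of 8.66% to 13.2%, 8.78% to 13.2% and 8.95% to 13.3%. The adjacent pair had the higher value at its first position in replicate 1 and at its other position in replicate 2.

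The fourth CAT2 site had a lower level in both replicates. At position 194149, 414 nt after the third, 7.53% of 531 and 7.50% of 360 treated reads were mutated, and 0 of 548 and 0 of 418 input reads. The replicate 2 value was 27 of 360 reads, exactly at the lowest fraction found anywhere in the list, 7.50%. At the fifth site (position 194396) 11.9% of 737 and 11.7% of 532 treated reads were mutated, and 0 of 527 and 0 of 460 input reads. From the third to the fourth site the level dropped by 3.80 points in replicate 1 and dropped by 2.90 points in replicate 2, and from the fourth to the fifth it rose by 4.41 and 4.15 points. The interval of the fourth site, 5.96% to 9.44%, did not overlap that of the fifth, 10.2% to 13.7%, while it did overlap that of the third, 8.95% to 13.3%. The authors chose the sites on these treated libraries, so this contrast within CAT2 is a description without a test.

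Set against sites of like depth, 4 CAT2 sites were high and 1 was at the bottom. Among listed sites within 1.5 times the same summed treated coverage, 90.8%, 90.2% and 93.0% were lower than the first, the second and the third CAT2 site. The share was 0% for the fourth, of 655 sites, and 96.3% for the fifth, of 454 sites. The fifth CAT2 site had 1269 treated reads in all.

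**Figure D2:**
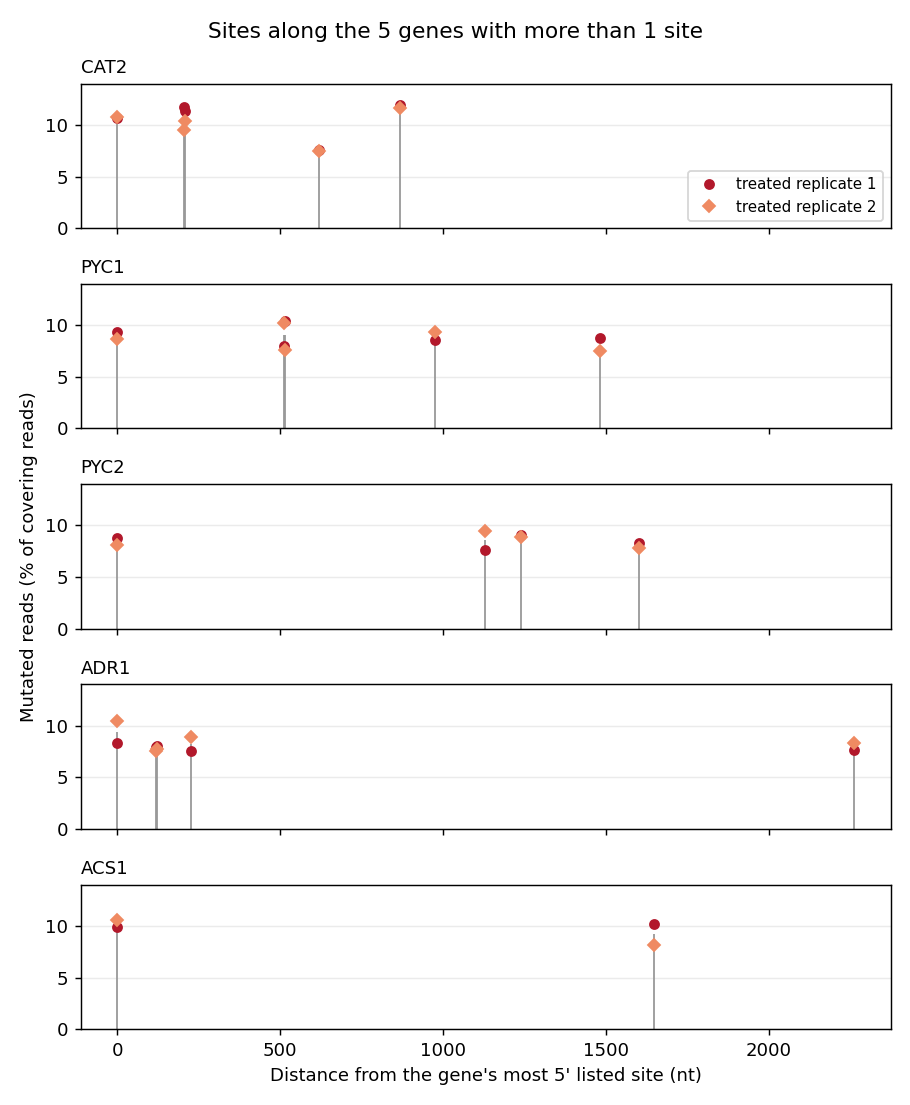
Treated share of mutated reads (y axis, %) at each site against its distance in nt from the most 5′ listed site of the gene (x axis), for the 5 genes with more than 1 site; points are the 2 treated replicates and grey lines reach their mean. The fourth CAT2 site, at 620 nt, lies at 7.52% between sites at 10.9% and 11.8%, and CAT2, PYC1 and ADR1 each have a pair of sites 2 nt apart.

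JEN1, the carrier that brings lactate and pyruvate into the cell and is repressed by glucose, had 1 site (YKL217W, chromosome XI, position 22594, plus strand). There 8.01% of 437 and 7.64% of 301 treated reads were mutated, and 0 of 367 and 0 of 316 input reads. MDH2, the cytosolic malate dehydrogenase of glucose synthesis, had 1 site too (YOL126C, chromosome XV, position 82135, minus strand). It had 7.52% of 2979 and 7.90% of 2102 treated reads mutated, and 0 of 2461 and 0.0482% (1 of 2073) input reads. Both sites stood near the lower end of the list, with only 5.39% of all listed sites below JEN1 and 2.80% below MDH2.

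PYC1 and PYC2 encode the 2 pyruvate carboxylases, biotin-dependent enzymes of the cytosol. They are close paralogs, so reads can be shared between them and a site of one can hold reads of the other. How the authors assigned such reads is not stated in the labels or the file. PYC1 had 5 sites over 1483 nt and PYC2 had 4 over 1602 nt, and their mean levels were 8.83% ± 0.236 and 8.52% ± 0.0653 (SD, n = 2).

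In PYC1 (YGL062W, chromosome VII, plus strand) the first site, at position 385485, had 9.38% of 800 and 8.66% of 566 treated reads mutated, and 0 of 645 and 0 of 469 input reads. The second, at position 385997, had 7.95% of 1044 and 10.2% of 708 treated reads mutated, and 0.113% (1 of 884) and 0 of 735 in input. The third, at position 385999, had 10.4% of 1025 and 7.60% of 697 treated reads mutated, and 0 of 867 and 0.138% (1 of 727) in input. This pair, 2 nt apart, had nearly the same coverage but opposite orders in the replicates. From the second to the third site the level rose by 2.49 points in replicate 1 and fell by 2.57 points in replicate 2, so that their mean levels were 9.06% at the second and 9.02% at the third. The third site had the smallest p of the 26 between treated replicates (Fisher exact test, unadjusted p = 0.0517, adjusted p = 1). The fourth PYC1 site, at position 386460, had 8.52% of 845 and 9.37% of 587 treated reads mutated, and 0 of 683 and 0 of 581 in input. The fifth, at position 386968, had 8.72% of 837 and 7.54% of 597, and 0 of 851 and 0 of 678 in input. By means of the replicates the first 4 PYC1 sites lay between 8.95% and 9.06%, and the fifth at 8.13% ± 0.837. In single replicates the first 4 spread more, from 7.95% to 10.4% in replicate 1 and from 7.60% to 10.2% in replicate 2. Every neighbouring pair of PYC1 sites had opposite orders in the replicates, so the closeness of the means partly reflects differences that cancel.

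PYC2 (YBR218C, chromosome II, minus strand) also had mean levels in a narrow range, with a wider spread in single replicates. Its most 5′ site, at position 662074, had 8.81% of 636 and 8.13% of 369 treated reads mutated, and 0 of 489 and 0 of 346 in input. At position 660944, 1130 nt downstream, the treated fractions were 7.65% of 981 and 9.49% of 664 reads, with 0.118% (1 of 846) and 0 of 687 in input. At position 660835, 109 nt further, they were 9.10% of 659 and 8.85% of 452, with 0 of 612 and 0 of 483 in input. The fourth site, 363 nt further at position 660472, had 8.34% of 755 and 7.80% of 564 treated reads mutated, with 0 of 659 and 0.176% (1 of 567) in input. The 4 mean levels ran from 8.07% to 8.98%, and all 4 intervals overlapped. Single values ran from 7.65% to 9.10% in replicate 1 and from 7.80% to 9.49% in replicate 2. The 5 PYC1 sites give 10 distances between any pair and the 4 PYC2 sites give 6, and no distance occurred in both genes. A common distance needs more than 1 matching site listed in both genes. The count therefore cannot show whether a single site, or its reads, are shared.

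ADR1 encodes a zinc finger activator of glucose-repressed genes, among them the alcohol dehydrogenase gene ADH2 and genes of acetate and fatty acid use. Its 5 sites (YDR216W, chromosome IV, plus strand) comprised 4 sites within 227 nt and 1 that lay 2034 nt downstream. At the first (position 896431) 8.33% of 396 and 10.4% of 249 treated reads were mutated, and 0 of 376 and 0 of 294 input reads. The second (position 896549), 118 nt further, had 7.94% of 579 and 7.53% of 438 mutated, and 0 of 479 and 0 of 455 in input. The third (position 896551), 2 nt further, had 8.00% of 600 and 7.76% of 464 mutated, and 0 of 494 and 0 of 469 in input. Unlike the pairs in PYC1 and CAT2, this pair kept its order in both replicates, by 0.0553 and 0.224 points. These differences are far inside counting error, with intervals of 6.28% to 9.58% and 6.42% to 9.67%.

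The fourth ADR1 site (position 896658), 107 nt further, had 7.59% of 593 and 8.87% of 462 treated reads mutated, with 0 of 482 and 0.227% (1 of 441) in input. The last (position 898692) had 7.63% of 459 and 8.36% of 299, with 0.258% (1 of 388) and 0 of 279 in input. The mean over the 5 ADR1 sites was 8.25% ± 0.492 (SD, n = 2), and all but the first lay below the median of all listed sites. Among sites of like coverage, 4.82% were lower than its second site and 62.2% lower than its first, the highest of the 5 at 9.39% ± 1.49.

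Ordered by their mean level over sites, the genes ran from CAT2 at 10.3% ± 0.492 through ALD4 at 9.77% ± 0.241, ACS1 at 9.73% ± 0.505, PYC1, PYC2, ACS2 at 8.43% ± 0.225, ADR1, ALD6 at 7.84% ± 0.457 and JEN1 at 7.83% ± 0.260 to MDH2 at 7.71% ± 0.267 (SD, n = 2 for each). The replicate values of CAT2, 10.6% and 9.95%, were just above those of ALD4, 9.94% and 9.60%, and overlapped with those of ACS1. Those of ACS1 and PYC1 were apart, 10.1% and 9.37% against 9.00% and 8.67%. PYC1 was also above PYC2, at 8.47% and 8.57%. All other neighbours in this order overlapped: ALD4 with ACS1, PYC2 with ACS2, and each gene from ACS2 down with the next. The values are descriptions, since the authors chose the sites on these libraries, and no listed site was below 7.50% in either treated replicate.

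**Figure D3:**
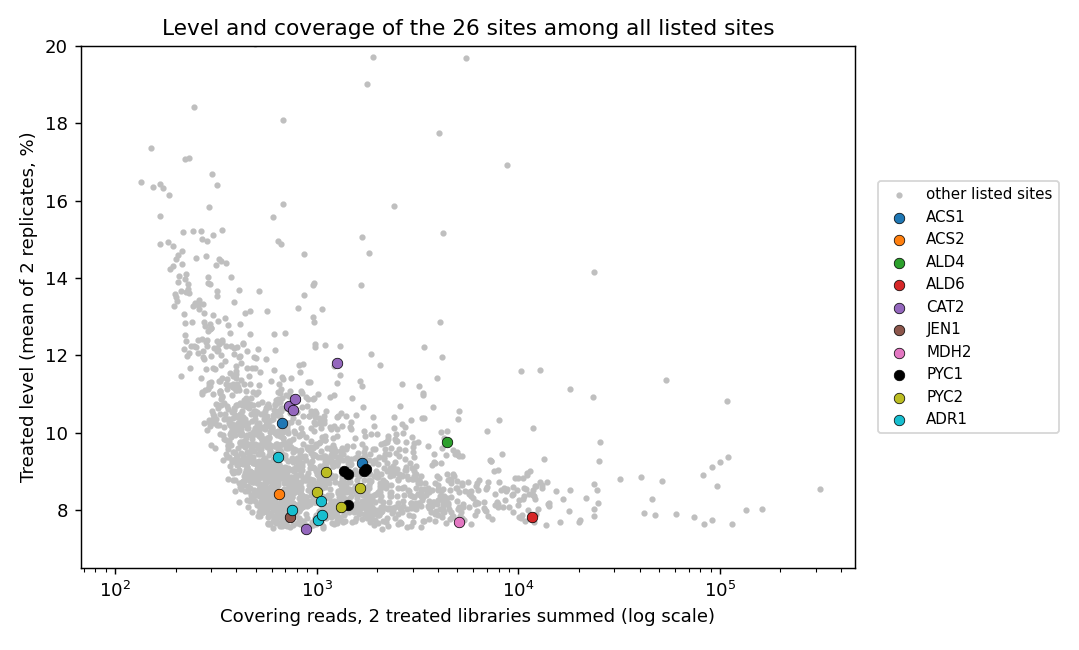
Treated level (y axis, mean of the 2 replicates, %) against the covering reads summed over the 2 treated libraries (x axis, log scale) for the 26 sites, coloured by gene, and for the other listed sites in grey; 20 grey sites above 20% lie outside the axis. The CAT2 sites at 10.6% to 11.8% are higher than 90.2% to 96.3% of sites of like coverage, and ALD6 and MDH2 lie near the lower end of the list.

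The authors chose the sites on these same treated libraries, and no listed site was below 7.50% in either. Agreement between the treated replicates is therefore partly set by that choice, and nothing is read from it. Median treated coverage was also higher at the 26 sites, 647.5 and 463 reads against 469 and 327.5 over all listed sites. Its part in the difference between replicates was not tested. The median absolute difference was 0.660 points over the 26 sites and 0.870 over all listed sites, and the largest of the 26 was 2.84 points, at the third PYC1 site. By Fisher exact test between treated replicates 0 of the 26 sites passed an adjusted p of 0.05, as did 0% of all sites. At an unadjusted p of 0.05 the counts were 0 of 26 and 2.75% of all sites. Replicate 2 was the higher at 10 of the 26 sites (38.5%), against 58.2% of all listed sites.

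In the authors' deposited table the fold of treated over input fraction was infinite in 40 of 52 entries, where no input read was mutated, and ran from 29.6 to 440 in the other 12. The largest q-value of the 26 sites in the authors' deposited table was 0.000435, at the ACS2 site in replicate 2. The p-values of the authors' deposited table solve to a one-sided binomial rate of 1.83% in replicate 1 and 1.81% in replicate 2 at these sites. The treated fractions were 4.12 to 6.54 times that rate in replicate 1 and 4.14 to 6.44 times in replicate 2.

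CAT2, PYC1 and ADR1 each had a pair of sites 2 nt apart. The 5 genes with more than 1 site had 16 neighbouring pairs, with a median distance of 305 nt, against 311 nt over all 636 such pairs in the list. Pairs exactly 2 nt apart numbered 12 in the whole list (1.89%), in 12 genes, and 3 of them were those of CAT2, PYC1 and ADR1. These were the only member pairs within 100 nt, 3 of 16 (18.8%), against 25.0% of all pairs. The close sites in CAT2 and ADR1 were among the reasons for choosing these genes, so this count was not tested. Distances were multiples of 3 in 4 of 16 member pairs and in 33.8% of all pairs.

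Sites 2 nt apart are covered by nearly the same reads. Summed treated coverage at the downstream position was 1.03 times that at the upstream one in CAT2, 0.983 times in PYC1 and 1.05 times in ADR1. The table does not say whether mutated reads at the 2 positions were the same reads. Mean levels within the 3 pairs differed by 0.262 points in CAT2, 0.0383 in PYC1 and 0.140 in ADR1. In PYC1 the differences in replicates 1 and 2, 2.49 and -2.57 points, cancel in the mean. Those of CAT2, -0.409 and 0.934 points, partly cancel too. Over all 12 pairs at 2 nt the median difference in mean level was 0.512 points, and over all pairs more than 100 nt apart it was 0.886 points. Among member pairs more than 100 nt apart it was 0.411 points. Most of these pairs, though not all, also had opposite orders in the replicates, so that their differences partly cancel in the mean. From the first to the second PYC1 site, for example, they were -1.42 and 1.51 points. The part of the higher coverage of the member sites was not tested.

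**Figure D4:**
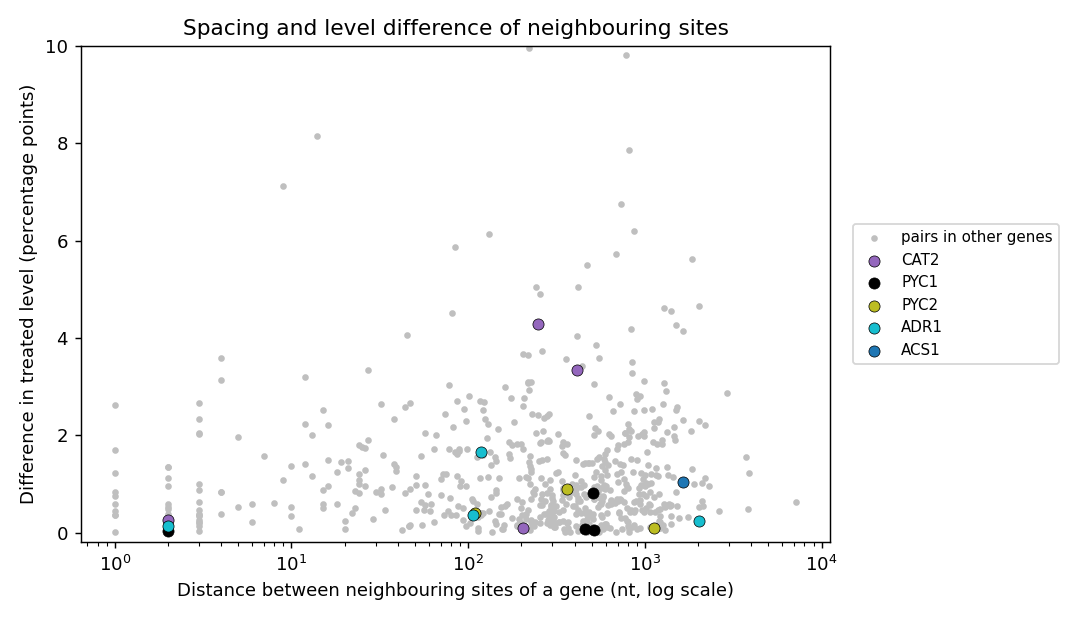
Absolute difference in treated level (y axis, percentage points) against the distance in nt (x axis, log scale) for neighbouring sites of 1 gene, with the 16 member pairs coloured by gene and pairs of other genes in grey; 10 grey pairs above 10 points lie outside the axis. By means of the 2 replicates, the pairs 2 nt apart in CAT2, PYC1 and ADR1 lie under 0.3 points, although those of CAT2 and PYC1 had opposite orders in the replicates. The 2 CAT2 pairs that include the fourth site lie at 3.35 and 4.28 points.

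Site numbers were uneven among the 10 genes. CAT2, PYC1 and ADR1 had 5 sites each, PYC2 4, ACS1 2, and the other 5 genes 1 each. In the whole list 17 of 1253 genes (1.36%) had at least 5 sites, and 12 had exactly 5. Compared with the 9 other genes of 5 sites by the distance between mean levels in the 2 treated libraries, PYC1 was nearest to SSD1 (0.154 points), GFA1 (0.456) and URA2 (0.470). ADR1 was nearest to FLC2 (0.324 points), HSC82 (0.400) and URA2 (1.01). CAT2 had no gene this near: NST1, GDB1 and AIP5 lay 1.58, 1.63 and 1.79 points away, all with lower means. HSC82 has a near-identical paralog, with which it can share reads.

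Of 27 further genes of acetate, carnitine, glyoxylate and gluconeogenic metabolism, 11 (40.7%) had a listed site, 14 sites in all, against 20.8% of 6002 nuclear protein-coding genes. The 27 genes were chosen with earlier results of these data known, so the difference between the shares was not tested. Gene length and expression were not taken into account, and the coverage of genes without a site was not used here. The highest of the 14 was in ADY2, which encodes an acetate transporter of the plasma membrane. Its sites lay 189 nt apart on chromosome III. That at position 132342 had a treated level of 19.0% ± 1.34, at 1097 and 675 treated reads, and that at position 132531 had 8.21% ± 0.269 (SD, n = 2), at 810 and 583. Input fractions were 0 at both ADY2 sites. The step within ADY2 was thus larger than any within the 10 genes.

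AGP2 and MDH3 of this wider list also had 2 sites each. AGP2, whose product is needed for carnitine uptake, had levels of 9.59% ± 1.30 and 12.2% ± 1.19 (SD, n = 2) at sites 726 nt apart. MDH3, the peroxisomal malate dehydrogenase, had 9.09% ± 0.598 and 8.78% ± 0.814, and MDH1, the mitochondrial one, had 8.74% ± 0.446 at its only site. All 3 malate dehydrogenase transcripts thus had listed sites, and that of MDH2, at 7.71% ± 0.267, was the lowest of the 4 sites.

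The remaining sites of the wider list were single. ALD5, a mitochondrial aldehyde dehydrogenase gene, had 13.8% of 123 and 14.3% of 84 treated reads mutated, at far lower coverage than ALD4 and ALD6. ALD3, a cytosolic one, had 8.33% ± 0.649. SNF1, the kinase that relieves glucose repression and acts upstream of Adr1, had 10.3% ± 0.00184 at 330 and 233 treated reads. At this coverage the counting error is far larger than that SD. The malic enzyme gene MAE1 had 10.1% ± 0.288. CIT2, the peroxisomal citrate synthase, ACH1, a mitochondrial CoA transferase, and MPC2, a subunit of the mitochondrial pyruvate carrier, had 8.49% ± 0.674, 8.35% ± 0.162 and 8.14% ± 0.198 (SD, n = 2 throughout).

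No site was listed in the other 16 genes. These include the carnitine acetyltransferase genes YAT1 and YAT2 and the carnitine carrier gene CRC1. They also include ICL1 and MLS1 of the glyoxylate cycle, FBP1 and PCK1 of gluconeogenesis, the Adr1 target ADH2, and BPL1, the ligase that attaches biotin to pyruvate carboxylase. A gene can lack a listed site because its coverage was low, and that was not tested. CAT2 was chosen because it has listed sites, and AGP2, needed for carnitine uptake, had 2. No contrast between CAT2 and the other carnitine genes is therefore drawn.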

How the data were processed

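The authors deposited 1 table of selected sites, with counts of covering and of mutated reads per library, and the fraction of mutated reads, per the file headers. The deposited fold is the ratio of treated to input fraction, and the deposited p-value and q-value are per replicate, per the file headers. The submitters' processing notes name cutadapt and STAR. No source used here gives the site caller, its filters or the genome build, and positions are printed as deposited. The depth of whole libraries is unknown. Gene symbols come from the RefSeq R64 table, which matched 10 of 10 genes. No genome was used, so sequence context and position within the gene were not analysed here.

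Groups came from sample titles. Each site was tested by two-sided Fisher exact test, treated against input on summed reads (minimum 10 reads) and between treated replicates, with Benjamini-Hochberg adjustment over all 1892 sites. Both tests were run on simulated reads at the coverage of the listed sites. The simulated sites were not selected on their reads, so these runs say nothing about the effect of the authors' selection. Wilson 95% intervals and the upper limit of 3 reads for a count of 0 cover counting error only. Tests used scipy 1.17.1 under Python 3.11.15, and tables were handled with pandas 2.3.3.

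The genes, the wider list of 27 and the tests were chosen with earlier results of these data known. All sites of the 10 genes are named, then all genes of the wider list with a site, and the 3 genes nearest to each 5-site member.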

Additional observations from a re-analysis of the deposited data

How the results depend on the processing

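With either replicate left out, 26 to 26 sites were higher after treatment, as in the main comparison, and so they were without a coverage minimum and at minimums of 20 and 50 reads. The authors' selection fixes this count, so it says nothing about stability. Without PYC1 and PYC2 it was 17, by construction. Treated and input libraries bear the same numbers in their titles, with no word on whether a number stands for 1 culture. Between same-numbered libraries, the deviations in coverage had a correlation of -0.00502 (1892 sites) and those in mutated fraction one of 0.106 (680 sites). Taking the replicate number as a block, in a Cochran-Mantel-Haenszel test, gave 26 sites and no changed call. The median level of 8.76% was 8.51% to 8.55% with a replicate left out, 8.70% with reads summed over replicates, 8.47% with genes weighted equally and 8.43% without PYC1 and PYC2. It moved by less than the spread of replicates with input subtracted. A minimum of 100 reads removed none of the 26 sites. The mean levels of single genes were within 1 SD in all 40 comparisons, which with n = 2 is fixed in advance where a replicate is left out and says nothing about stability. By Fisher exact test 0 sites differed between treated replicates at each coverage minimum run, and 0 at an unadjusted p of 0.05, which was chosen after seeing the data. The coverage minimums removed none of the 26 sites, so these counts were fixed too. Pairs within 100 nt numbered 3, also within 50 nt, and 6 within 200 nt; without PYC1 and PYC2, also chosen after seeing the data, they numbered 2. The alternatives for sequence context need a genome and were not run. Depth limits the precision of single sites: at the first ADR1 site, with the fewest treated reads, the interval was 7.16% to 11.6%.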
